A study of Mus musculus with 5 samples.

Results

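The 10 genes described here are those that cells are known to use when oxygen is short or when glucose is burned quickly: Hif1a, Egln3, Slc2a1, Hk2, Pfkfb3, Pgk1, Ldha, Adm, Vegfa and Bnip3. They were taken by symbol from the 27998 genes of the deposited gene table, and all 10 were found. They were followed in single-cell RNA profiles of the ileum, the distal small intestine, of C57BL/6 mice aged 8 to 12 weeks. Each library held epithelial cells from mice after sham surgery (3 libraries, sham 1 to 3) or after small bowel resection, the removal of a length of small intestine (2 libraries, resection 1 and 2). The labels name no allele, drug or time after surgery for either group. They also do not say whether a library is 1 animal, so the p-values below measure only the spread between these libraries.

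Cells sense oxygen through the HIF pathway. When oxygen is plentiful, prolyl hydroxylases such as EGLN3 mark the alpha subunit HIF-1α for destruction. When it is scarce, HIF-1α persists, pairs with ARNT and binds short DNA motifs near genes of glucose uptake, glycolysis, vessel growth and mitochondrial turnover. The small intestine is known for a steep oxygen gradient, in which blood vessels that run in parallel leave the villus tip poorer in oxygen than its base. Several of these genes also respond to signals other than oxygen, inflammatory ones among them.

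All 10 genes had at least 1 promoter window in RefSeq (GRCm38.p6), each running from 250 bases before to 50 bases after a gene start. The windows were searched on both strands for the core of the HIF binding motif, ACGTG or GCGTG, which reads CACGT or CACGC on the other strand. A CACGTG counts once on each strand, so matches can overlap. A match was present in 12 of the 13 windows of these genes and in 14380 of 32851 windows of all genes (43.8%). Such a match is a description of the letters and not a bound site. The promoters of Hk2 and Adm are shown because these genes had the lowest levels after resection relative to sham. That of Ldha is shown because it holds the most matches, 7, and that of Vegfa because it holds none. Each is written 5′ to 3′ on the strand of the gene, with the matches in capitals. The Hk2 window lies at chr6:82774405-82774704 on the minus strand, that of Adm at chr7:110627407-110627706 on the plus strand, that of Ldha at chr7:46845554-46845853 on the plus strand and that of Vegfa at chr17:46032328-46032627 on the minus strand.
Hk2 promoter: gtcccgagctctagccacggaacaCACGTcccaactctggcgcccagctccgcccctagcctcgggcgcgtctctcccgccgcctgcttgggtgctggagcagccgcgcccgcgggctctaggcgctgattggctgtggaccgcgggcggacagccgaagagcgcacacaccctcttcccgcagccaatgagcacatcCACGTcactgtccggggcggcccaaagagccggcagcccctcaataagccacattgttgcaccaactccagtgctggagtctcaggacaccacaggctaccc
Adm promoter: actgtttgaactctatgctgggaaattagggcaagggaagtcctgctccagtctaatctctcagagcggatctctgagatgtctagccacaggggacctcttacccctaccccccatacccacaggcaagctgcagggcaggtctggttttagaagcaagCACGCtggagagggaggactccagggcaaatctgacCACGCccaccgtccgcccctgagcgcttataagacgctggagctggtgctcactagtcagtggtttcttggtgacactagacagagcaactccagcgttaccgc
Ldha promoter: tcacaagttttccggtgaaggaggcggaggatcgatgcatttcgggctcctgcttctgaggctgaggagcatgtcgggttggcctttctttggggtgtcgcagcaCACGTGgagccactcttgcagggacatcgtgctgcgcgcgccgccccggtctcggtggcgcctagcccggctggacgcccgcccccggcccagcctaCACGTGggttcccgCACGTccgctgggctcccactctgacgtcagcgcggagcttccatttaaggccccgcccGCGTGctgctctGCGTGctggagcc
Vegfa promoter: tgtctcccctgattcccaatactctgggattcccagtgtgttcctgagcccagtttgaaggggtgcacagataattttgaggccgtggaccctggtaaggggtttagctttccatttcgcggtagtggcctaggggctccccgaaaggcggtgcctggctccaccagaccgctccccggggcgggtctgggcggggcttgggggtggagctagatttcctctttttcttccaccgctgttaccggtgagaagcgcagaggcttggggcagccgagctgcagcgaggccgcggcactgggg
Hk2 and Adm hold 2 matches each, in the forms CACGT and CACGC respectively. A second Vegfa window, which starts inside the gene at chr17:46025114-46025413, holds 2.

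The libraries held 1402 to 7233 cells, with 11749000 to 41281643 unique molecular identifiers (UMIs, each a captured mRNA molecule) in all and a median of 4541 to 6239.5 per cell. Filters and removal of predicted doublets left 18220 of 19404 cells, and any pair of libraries shared 6 to 47 cell barcodes. The absorptive cells of the libraries, the enterocyte-like class named below, stood apart from each other. Only cells of this class were compared. By the clusters these cells fell into, sham 1 overlapped resection 1 by 19.5%. Sham 2, sham 3 and resection 2 overlapped each other by 14.8 to 25.1%. Overlap between these 2 sets was 6.08 to 9.66%, and the labels give no source for the split. The first set (A) holds sham 1 and resection 1, and the second (B) the other 3 libraries. Median mitochondrial shares were 13.7 and 11.7% in set A and 7.24 to 9.19% in set B. Cell classes were named from marker genes and end in "-like". The enterocyte-like class, the absorptive cells, held 696, 1736 and 797 cells in sham 1 to 3, and resection 1 and 2 gave 2361 and 3498, with all 9 enterocyte markers detected in every library. Different clusters made up this class in each library. It was mostly a Dusp5 and Fgf15 cluster in sham 1 and an MHC class II cluster in sham 2. In sham 3 it was a Ccl20, Adm and Nos2 cluster, in resection 1 an Lct cluster and an Sgk1 cluster, and in resection 2 a Fabp2 and Cyp3a11 cluster. The 10 genes and their pathway lists were kept out of the clustering.

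Counts were summed per library and class and are given as CPM, UMI counts scaled to a total that is common to all sums. The 9 enterocyte markers summed to 12258 CPM in sham 1 and to 34099 to 80429 CPM in the other libraries of this class. Most of these 10 genes were highest in enterocyte-like cells, the class at the end of the crypt to villus path. Hif1a, Egln3, Pfkfb3, Adm and Vegfa were each higher there than in every other class, in every library in which that class could be measured. Slc2a1 ran the other way, and Hk2 had no fixed order. Single clusters did not all follow their class. In an immature enterocyte-like cluster led by Areg, F3 and Phlda1, Hif1a was 74.3 CPM in sham 3 and 49.6 CPM in resection 2. These were the highest values of the enterocyte-like and immature clusters there, while in sham 2 it was 5th of 9 (41.6 CPM). Egln3 in this cluster was 40.9, 40.8 and 58.7 CPM in sham 2, sham 3 and resection 2, below the highest enterocyte-like cluster of each.

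Hif1a encodes the oxygen-regulated subunit itself. Its enterocyte-like level was 51.8, 46.0 and 71.9 CPM in the sham libraries and 53.9 and 34.5 CPM in the resection libraries. The mean over libraries was 51.6 ± 13.6 CPM (SD, n = 5), against 36.0 ± 9.27 CPM in immature enterocyte-like cells and 18.9 ± 6.57 CPM (n = 4) in stem-like cells, the lowest class. The 5 classes between the highest and the lowest lay between 25.4 and 36.0 CPM and did not differ from their neighbours in this order beyond their spread.

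Egln3, a hydroxylase that turns HIF off and is itself a HIF target, stood at 30.8, 41.7 and 64.1 CPM in sham and 29.0 and 55.3 CPM in resection enterocyte-like cells. Its mean of 44.2 ± 15.3 CPM (SD, n = 5) compared with 17.1 ± 2.38 CPM in T cell-like cells, 16.0 ± 9.69 CPM in immature enterocyte-like cells, 2.43 ± 1.43 CPM in cycling-like cells and 2.31 ± 1.37 CPM (n = 4) in stem-like cells. Cycling-like and stem-like cells thus held little of this transcript, at most 4.35 CPM in a library, while Paneth-like cells, the other crypt class shown, ranged from 6.72 to 26.6 CPM.

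Slc2a1 encodes GLUT1, the glucose transporter that hypoxia is known to induce. Only 16 of its 225 UMIs came from enterocyte-like cells, although these are the most numerous class. Its level there was 0.440, 0.417 and 1.23 CPM in sham and 0.145 and 0.203 CPM in resection, each from 2 to 6 UMIs. Stem-like cells averaged 4.96 ± 1.60 CPM (SD, n = 4), Paneth-like cells 4.45 ± 2.66 CPM (n = 5) and cycling-like cells 3.41 ± 0.715 CPM (n = 5). It was lower in enterocyte-like cells than in each of the other epithelial classes in every library. At this depth no difference between surgery groups could be tested in enterocyte-like cells.

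Hk2, the hexokinase that traps glucose in the cell, was detected in every class. Its class means ran from 51.4 ± 67.3 CPM (SD, n = 5) in enterocyte-like cells to 25.5 ± 19.2 CPM in Paneth-like cells, and no neighbours in that order differed beyond their spread. Enterocyte-like cells exceeded immature enterocyte-like cells in 2 of 5 libraries, sham 1 and sham 3. In resection 1 Hk2 was 6.30 CPM in enterocyte-like against 26.8 CPM in immature enterocyte-like cells, and in resection 2 it was 9.28 against 18.2 CPM.

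Pfkfb3, which makes the allosteric activator of phosphofructokinase, was 27.3, 9.04 and 92.2 CPM in sham and 22.6 and 31.8 CPM in resection enterocyte-like cells. Its class mean fell from 36.6 ± 32.2 CPM (SD, n = 5) there to 18.1 ± 7.79 CPM in T cell-like cells and 1.67 ± 1.32 CPM in cycling-like cells. Ldha, which turns pyruvate into lactate, was 712, 1015 and 1392 CPM in sham and 955 and 1155 CPM in resection enterocyte-like cells. It averaged 1046 ± 251 CPM there, 930 ± 225 CPM in immature enterocyte-like and 511 ± 90.5 CPM (n = 4) in stem-like cells. Pgk1, a later glycolytic enzyme, stayed between 3.06 and 7.65 CPM in the class means and was highest in cycling-like cells, at 7.65 ± 3.84 CPM. It has a near-identical copy, Pgk1-rs7, listed at 0.205 to 1.67 CPM in enterocyte-like cells. Reads shared between these copies make its values uncertain.

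Adm encodes adrenomedullin, a peptide that widens vessels and protects barriers. Relative to its mean it had the widest spread of the 10 genes: 57.3, 27.0 and 235 CPM in sham and 7.89 and 16.9 CPM in resection enterocyte-like cells. Vegfa, the main signal for vessel growth, was 46.9, 33.5 and 27.3 CPM in sham and 101 and 24.7 CPM in resection. Resection 1 alone was high in Vegfa, and the other 4 libraries lay within 24.7 and 46.9 CPM. Paneth-like cells were next for Vegfa, at 30.02 ± 20.7 CPM (SD, n = 5), and immature enterocyte-like cells were low, at 6.20 ± 2.32 CPM. Bnip3, a mitophagy receptor, was 3.52, 12.4 and 10.9 CPM in sham and 19.6 and 7.86 CPM in resection enterocyte-like cells, and no UMI of it was found in stem-like cells of the 4 libraries with enough of them to sum.

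**Figure D1:**
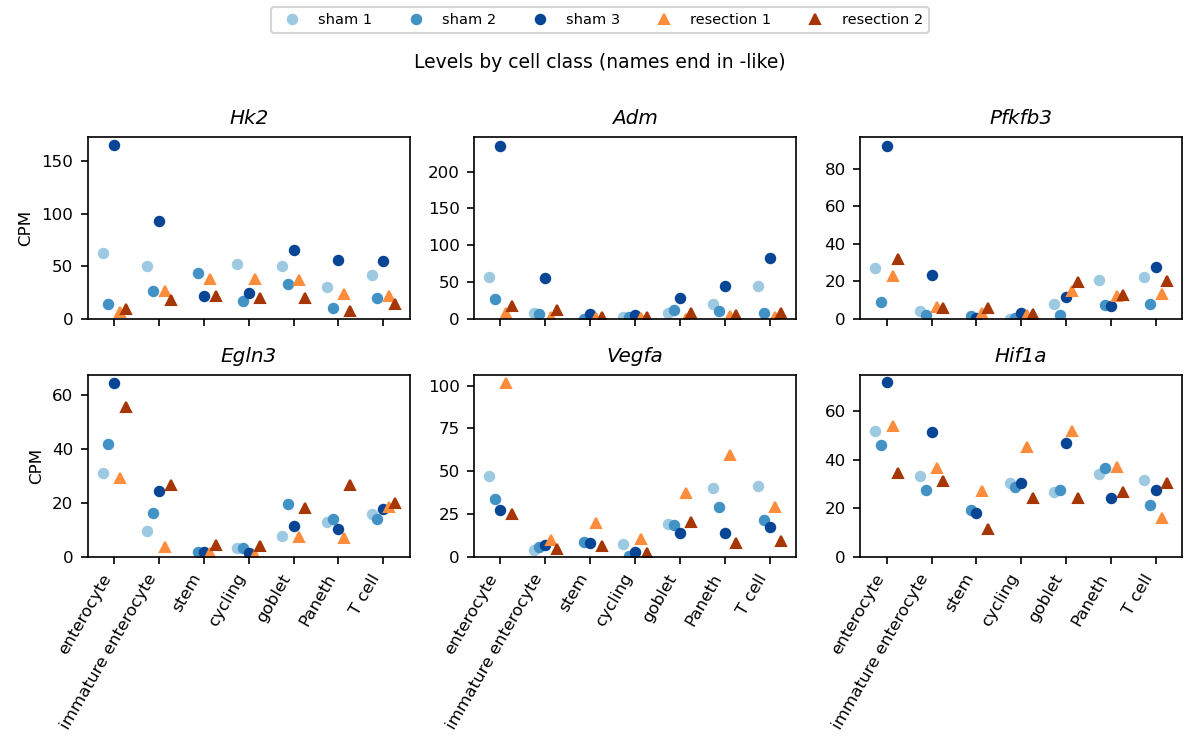
Level of 6 genes in each cell class. Each point is 1 library, with circles for sham and triangles for resection, and the vertical axis is CPM on a linear scale from 0. Adm, Pfkfb3, Egln3, Vegfa and Hif1a are highest in enterocyte-like cells in each library, whereas Hk2 is spread over all classes.

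T cell-like cells, a class that in this tissue is usually made of intraepithelial lymphocytes, carried Adm at 44.5, 7.66 and 82.7 CPM in sham and 2.65 and 8.20 CPM in resection. That is the same library order at the top as in enterocyte-like cells, sham 3 first and sham 1 second. Free RNA in droplets can give such UMIs, and its part in the levels outside enterocyte-like cells was not tested. Within the enterocyte-like sums, summed markers of endothelial cells were 0.205 to 1.38 CPM and those of stromal cells 0 to 0.556 CPM. The endothelial markers Cdh5, Kdr and Emcn were at 0 in every library. T cell markers summed to 23.4 to 57.0 CPM in sham and 14.6 and 45.8 CPM in resection. Red cell markers summed to 11.9 CPM in sham 3, the library with the highest Hk2 and Adm, and to 0.217 to 1.63 CPM in the others, and their part in these levels was not tested.

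The comparison of surgery groups asked how these genes differ in the ileum that remains after resection. In enterocyte-like cells Hk2 and Adm lay below the whole sham range in resection 1 and resection 2, but neither passed the test. Hk2 was 62.3, 14.5 and 165 CPM in sham (80.5 ± 76.8, SD, n = 3) against 6.30 and 9.28 CPM in resection (7.79 ± 2.11, n = 2). The groups did not overlap, although sham 2 lay close to resection 2, for Hk2 and for Adm. The log2 fold change was -3.41 ± 0.93 (SE), with an adjusted p of 0.573 by edgeR's quasi-likelihood test with Benjamini-Hochberg adjustment. Adm averaged 106 ± 113 CPM (SD, n = 3) in sham against 12.4 ± 6.35 CPM (n = 2) in resection. Its log2 fold change was -3.14 ± 0.94, with an adjusted p of 0.694 by the same edgeR test. Among the 9816 genes tested, Hk2 had the 5th and Adm the 6th lowest fold change.

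**Figure D2:**
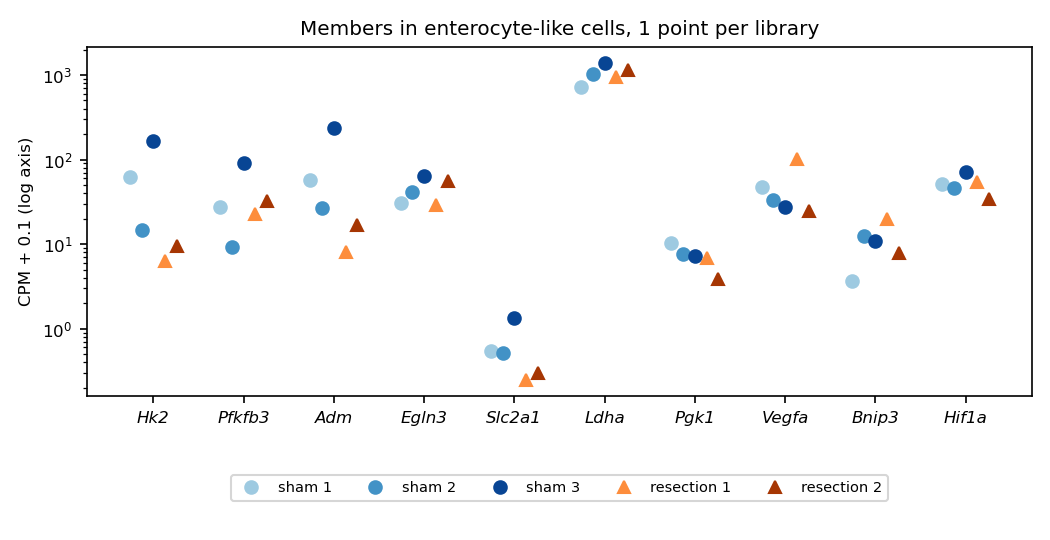
Levels of the 10 genes in enterocyte-like cells. Each point is 1 library, with circles for sham and triangles for resection, and the vertical axis is CPM + 0.1 on a log scale. Both resection libraries lie below all sham libraries for Hk2, Adm, Pgk1 and Slc2a1, and Vegfa is raised in resection 1 only.

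None of the 9 tested genes passed an adjusted p of 0.05 in enterocyte-like cells. The test called 1 gene in all of the 9816 (0.0102%), the glucose transporter Slc2a2, which was named after its value was seen and had a log2 fold change of 3.85. At an unadjusted p below 0.05 edgeR listed 529 genes (5.39%), Hk2 and Adm among them. DESeq2 called 74 genes (0.754%), again including Hk2 (adjusted p = 0.00207) and Adm (adjusted p = 0.00783). Over all alternatives to the edgeR fit, DESeq2 included, the adjusted p of Hk2 ran from 0.00207 to 0.99999 and that of Adm from 0.00783 to 0.99999. Non-overlap with resection lower was seen in 3 of the 9 genes, Hk2, Adm and Pgk1, against 6.91% of all genes tested. Non-overlap with resection higher was seen in 0 of 9 against 12.5%. The untested Slc2a1 was also lower in both resection libraries, from 2 and 3 UMIs.

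Sham 3 carried the highest Hk2 and Adm, and leaving it out changed the log2 fold change to -2.30 for Hk2 and -1.77 for Adm (edgeR adjusted p = 0.772 and 0.777). On a log2(CPM + 1) scale, resection minus sham was -3.12 in set A and -2.30 in set B for Hk2, and -2.71 and -2.19 for Adm. The set B values rested on sham 3. With sham 2 alone against resection 2, a comparison added after the data were seen, they were -0.59 for Hk2 and -0.65 for Adm. Sums for both groups were available in 8 enterocyte-like clusters, most with 1 or 2 libraries a group, and are set side by side with no test. Hk2 was lower in resection than in every sham library of the cluster in 3 of the 8, higher in 1 and overlapping in 4. For Adm these counts were 5, 1 and 2. The clusters with lower Hk2 each held a single sham library. A cluster with 1 library on each side cannot overlap. No share of all genes is given for these counts, so they are a description only.

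In the Dusp5 and Fgf15 cluster, Hk2 was 65.3 CPM in sham 1 (exact Poisson 95% interval 57.8 to 73.4, counting error only) and 17.5 CPM (12.9 to 23.3) in resection 1. Adm was 55.9 CPM (49.0 to 63.4) and 13.0 CPM (9.09 to 18.1) there. In the Ccl20, Adm and Nos2 cluster, Hk2 was 172 CPM (160 to 184) in sham 3 and 36.7 CPM (17.6 to 67.4) in resection 2. These 2 clusters hold most enterocyte-like cells of sham 1 and sham 3. Against sham 2, Hk2 of resection 2 was the higher in 5 of the 6 clusters that held both, and Adm in 3 of the 6. In the MHC class II cluster Hk2 was 15.2 CPM (12.3 to 18.7) in sham 2 and 18.1 CPM (5.88 to 42.3) in resection 2, and in the Fabp2 and Cyp3a11 cluster 3.55 CPM (0.0898 to 19.8) and 4.32 CPM (3.02 to 5.98). A cluster led by the interferon-induced genes Isg15, Ifit1 and Rsad2 had Hk2 at 4.21 and 10.9 CPM in sham 1 and sham 2 and 13.2 and 13.6 CPM in resection, from 1 to 4 UMIs each.

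None of the other genes passed the test. Ldha had a log2 fold change of -0.03 ± 0.37, Egln3 of -0.16 ± 0.41 and Hif1a of -0.41 ± 0.30. Pfkfb3 stood at -0.70 ± 0.80, and at 0.58 without sham 3. Pgk1 was 10.1, 7.51 and 7.17 CPM in sham and 6.73 and 3.79 CPM in resection, without overlap, at -0.70 ± 0.33 (edgeR adjusted p = 0.982). Vegfa at 0.75 ± 0.52 and Bnip3 at 0.53 ± 0.55 rested on resection 1, and without it they were -0.54 and -0.22. Within the sets Vegfa was 1.09 in A and -0.28 in B, and Bnip3 2.19 and -0.51. The median log2 fold change of the 9 tested genes was -0.41, against -0.02 over all genes tested.

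In the other classes the same edgeR fit called none of these genes. In immature enterocyte-like cells 0 of 10 were called, with 0 of 10302 genes called in all (0.0%), 141 (1.37%) at an unadjusted p below 0.05 and 5 (0.0485%) by DESeq2. Hk2 was 49.8, 26.5 and 92.8 CPM in sham and 26.8 and 18.2 CPM in resection there, a log2 fold change of -1.36 ± 0.51 (edgeR adjusted p = 0.9999). In cycling-like cells 0 of 8 tested were called (0.0% of 9446 genes, 1.58% unadjusted, 0.0212% by DESeq2) and Hk2 was at -0.09 ± 0.45. In goblet-like cells 0 of 6 were called (0.0464% of 6466 genes, 3.74% unadjusted, 0.0773% by DESeq2), and in Paneth-like cells 0 of 7 (0.0317% of 6310 genes, 1.9% unadjusted, 0.0792% by DESeq2). Paneth-like Adm was 20.4, 10.1 and 45.1 CPM in sham against 4.48 and 4.69 CPM in resection, from 3 to 24 UMIs a library, with a log2 fold change of -2.19 ± 0.69 (edgeR adjusted p = 0.9998). Goblet-like Pfkfb3 had a higher level in both resection libraries, 14.8 and 19.5 CPM against 1.84 to 11.4 CPM in sham, at 1.44 ± 0.62 (edgeR adjusted p = 0.9999). Goblet-like Vegfa and Pgk1 were also higher in both without overlap, and goblet-like Adm was lower. Adm and Pgk1 in cycling-like cells and Pgk1 in immature enterocyte-like cells were lower in both as well. The share of all genes without overlap in these classes is not given. In all epithelial cells together 0 of 10 were called (0.0% of 11725 genes, 2.81% unadjusted, 0.299% by DESeq2), with Hk2 at -1.80 ± 0.56 and Adm at -2.32 ± 0.76. Stem-like cells could not be tested with all libraries, because sham 1 held 7 of them.

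Enterocyte-like cells were then ordered by a villus score, the mean of 8 genes of the villus tip minus that of 8 genes of its base, none of them among the 10 genes. The cells of each library were divided into 3 equal segments, lower, middle and upper, which are ranges of a score and not cell types. Between 17.7 and 26.0% of the cells of a library lay within 0.1 score units of a boundary. The upper segments had lower median depth in every library, from 4863.5 against 4866.5 UMIs in sham 1 to 3258 against 4541 UMIs in sham 2, and its part was not tested beyond thinning all cells to 2000 UMIs. Between upper and lower segments, with the library as a block, 5 of the 9 tested genes changed. Over all genes outside the score 30.3% were called, 15.5% higher and 14.9% lower, so a call here is common (39.7% at an unadjusted p below 0.05 and 17.6% by DESeq2).

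Vegfa rose toward the tip in all 5 libraries, where 16.4% of all genes did so. Its lower and upper levels were 32.1 and 59.8 CPM in sham 1, 22.1 and 44.5 CPM in sham 2, 20.4 and 33.7 CPM in sham 3, 59.2 and 144 CPM in resection 1 and 18.1 and 30.8 CPM in resection 2. The log2 difference was 0.999 ± 0.11 with an adjusted p of 1.72e-06 by edgeR, and it was called under every alternative (adjusted p 1.12e-15 to 8.75e-05). Pfkfb3 also rose in 5 of 5 libraries, from 14.8 to 37.2, 5.61 to 17.2 and 80.7 to 110 CPM in sham and from 14.5 to 24.6 and 26.3 to 36.4 CPM in resection. Its log2 difference was 0.71 ± 0.14 (edgeR adjusted p = 5.91e-04), and it was lost only when the score used the tip genes alone (0.31, adjusted p = 0.0943, with a range of 3.40e-07 to 0.0943 over the alternatives).

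Hif1a rose by a smaller amount, 0.40 ± 0.12 (edgeR adjusted p = 0.0190, upper above lower in 5 of 5 libraries). The call was lost without sham 1 (adjusted p = 0.0619) and without sham 2 (adjusted p = 0.0592), with a range of 0.00165 to 0.0619 over the alternatives. Bnip3 rose by 0.78 ± 0.23 (edgeR adjusted p = 0.0130) but in 3 of 5 libraries, sham 2, sham 3 and resection 1. Resection 1 went from 9.93 to 27.0 CPM and sham 3 from 6.99 to 17.6 CPM. The call was lost without resection 1 (0.38, adjusted p = 0.318) and without sham 3 (adjusted p = 0.0556), with DESeq2 and with thinned cells (range over the alternatives 1.94e-04 to 0.318). Hk2 fell by 0.55 ± 0.16 on the log2 scale (edgeR adjusted p = 0.0139, lower in 4 of 5 libraries), a call lost without resection 2 (adjusted p = 0.0669) and under 4 other settings (range 4.03e-04 to 0.619).

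Ldha at -0.14 ± 0.08, Egln3 at 0.07 ± 0.11, Pgk1 at 0.17 ± 0.26 and Adm at 0.35 ± 0.21 did not pass (edgeR adjusted p = 0.181 to 0.682). Adm passed in some alternatives, such as without resection 2 (0.70, adjusted p = 0.00385, range over the alternatives 2.23e-04 to 0.782). Egln3 passed when immature enterocyte-like cells were included in the segments (1.12, adjusted p = 3.60e-05, range 3.60e-05 to 0.950). Slc2a1 was too low to test. The median log2 difference of the 9 genes was 0.35, against -0.0048 over all genes tested.

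**Figure D3:**
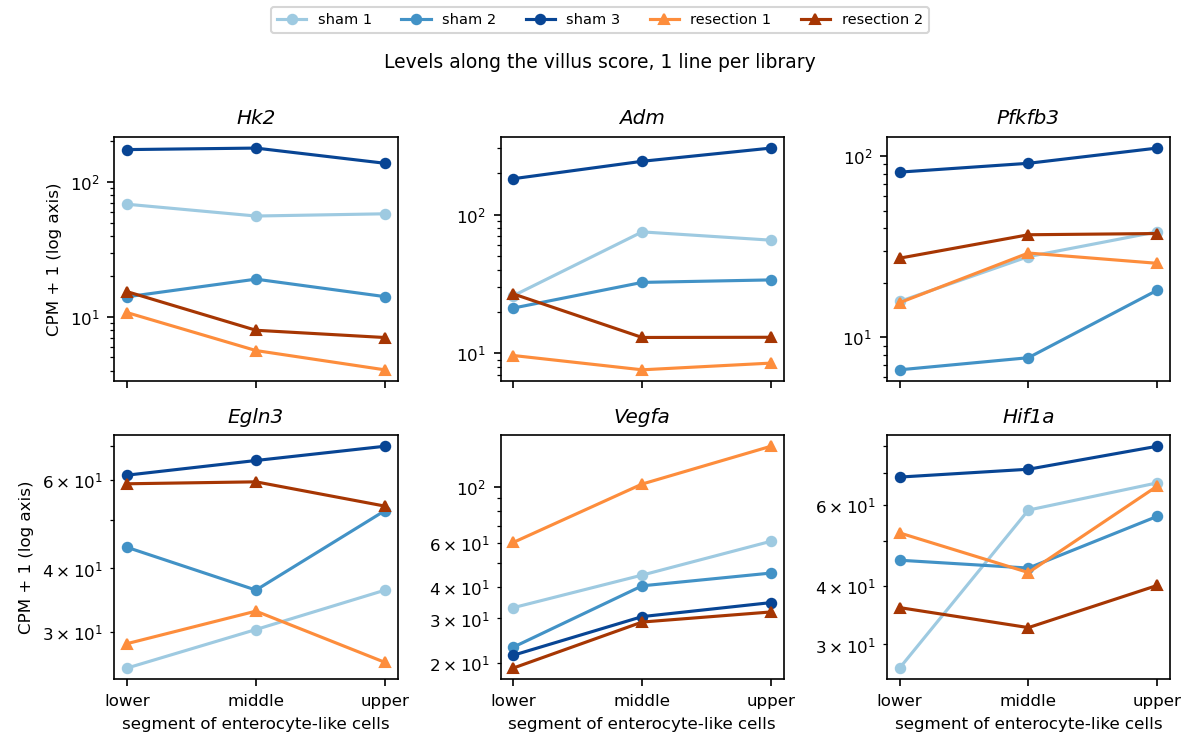
Levels of 6 genes in the lower, middle and upper segment of enterocyte-like cells along the villus score. Each line is 1 library, with circles for sham and triangles for resection, and the vertical axis is CPM + 1 on a log scale. Vegfa and Pfkfb3 are higher in the upper than in the lower segment in each library, while Adm is higher there only in the 3 sham libraries and Hk2 is lower there in both resection libraries.

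The villus profile of 2 genes differed between the surgery groups. Adm increased from the lower to the upper segment in all 3 sham libraries, from 25.1 to 64.5, from 20.2 to 32.8 and from 181 to 301 CPM. In resection it went from 8.64 to 7.50 CPM and from 25.8 to 12.1 CPM. The interaction, upper minus lower in resection minus the same in sham, was -1.62 ± 0.26 on the log2 scale (edgeR adjusted p = 0.00134). Hk2 was nearly level in sham, at 67.5 and 57.2, 13.1 and 13.1, and 173 and 137 CPM in the lower and upper segments. In resection it went from 9.75 to 3.05 CPM and from 14.4 to 6.03 CPM. Its interaction was -1.13 ± 0.28 (edgeR adjusted p = 0.0336). Thus 2 of the 9 tested genes were called, both lower, against 1.54% of all 8680 genes tested, 1.32% being lower calls (0.979% of all genes were called by DESeq2 and 11.9% had an unadjusted p below 0.05).

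Those calls were not firm. Adm lost its call without resection 2 (-1.06, adjusted p = 0.205) and when the score used the tip genes alone (-0.61, adjusted p = 0.438), and its adjusted p over all alternatives ran from 3.65e-08 to 0.438. Hk2 lost its call when any 1 of the 5 libraries was left out (adjusted p = 0.0580 to 0.305), and over all alternatives its adjusted p ran from 7.80e-04 to 0.992. DESeq2 gave no adjusted p for either gene. The other 7 genes were not called, with Pgk1 nearest at 1.15 ± 0.45 (edgeR adjusted p = 0.278) and Egln3 at -0.42 ± 0.19 (edgeR adjusted p = 0.379).

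Enterocyte states were compared in clusters made after scaling genes within each library, so that a state could hold cells of several libraries. A state is named here by its leading genes. One state was led by Ccl20, Adm and Nos2, a chemokine, adrenomedullin and the inducible nitric oxide synthase. It held 494 cells, 332 of them (67.2%) from sham 3, with 29, 30, 11 and 92 from sham 1, sham 2, resection 1 and resection 2. Adm there was 208, 53.6 and 329 CPM in sham 1 to 3, and 70.9 CPM in resection 2, the highest of all states in each of these 4 libraries. Pfkfb3 was likewise highest there in the same 4 libraries, at 69.3, 20.1, 118 and 91.5 CPM, but the sham 2 value rested on 3 UMIs and was close to the next state's 18.4 CPM. Hk2 was 104, 6.70, 188 and 43.5 CPM there, the sham 2 value resting on 1 UMI. Resection 1 had too few cells in it for a value.

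A state of immature enterocyte-like cells led by F3, Edn1 and Areg, tissue factor, endothelin and an EGF receptor ligand, held the highest Hk2 of sham 1 (138 CPM) and sham 2 (59.6 CPM). Its Hk2 was 141 CPM in sham 3, 27.0 CPM in resection 1 and 25.3 CPM in resection 2. In this state both resection libraries were below all sham libraries. Adm in it did not separate the groups, at 55.0, 21.3 and 91.2 CPM in sham and 17.1 and 31.8 CPM in resection. Hk2 was also lower in both resection libraries in the states led by Lct, by Acta1, by Ada and by Ccl20 with Saa1. The groups overlapped in those led by Gsdmc4, by Gsta1, by Isg15 and by Ccl20 with Adm. No test was run on the states. A state led by Sgk1, Pck1 and Abcb1a was mostly resection 1, with 669 of its 844 cells (79.3%). It held 1 Hk2 UMI in those 669 cells (0.272 CPM) against 462 of Vegfa (126 CPM). Hk2 there was 0 CPM in sham 2 (59 cells) and sham 3 (37 cells), and 9.47 CPM in resection 2 (63 cells). With so few sham cells, a value of 0 cannot be placed below the 0.272 CPM of resection 1. The groups were thus not ordered in this state. Vegfa there was 41.8, 22.2 and 22.1 CPM in sham 2, sham 3 and resection 2. Vegfa was highest in a state led by the villus tip gene Ada in sham 2 (72.3 CPM), resection 1 (161 CPM) and resection 2 (32.5 CPM). In sham 1 Vegfa was 61.6 CPM there, below the 78.9 CPM of the state led by Lct. In sham 3 the Ada state had 24 cells and 1 Vegfa UMI. Vegfa of sham 3 was highest in the Ccl20 and Adm state (32.2 CPM).

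**Figure D4:**
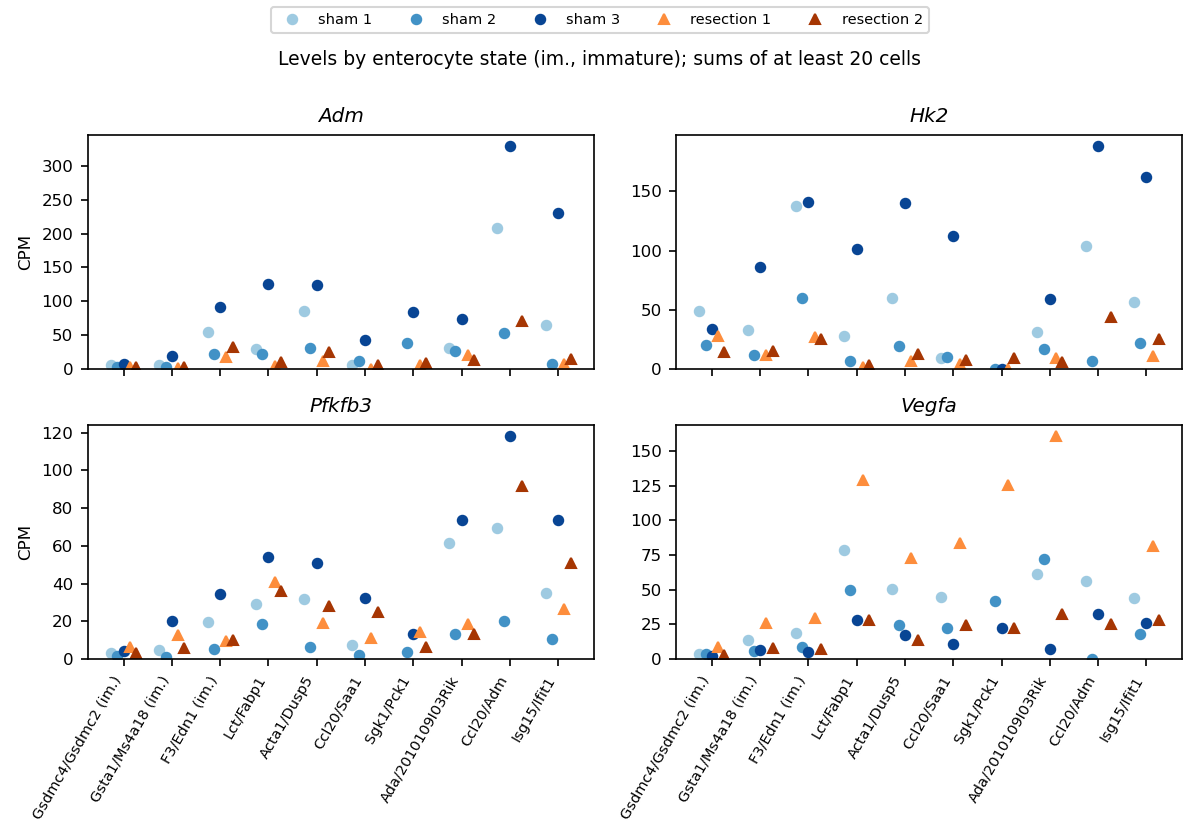
Levels of 4 genes in the enterocyte states, each named by its first 2 leading genes. Each point is 1 library with at least 20 cells in the state, with circles for sham and triangles for resection, and the vertical axis is CPM on a linear scale. Adm and Pfkfb3 peak in the Ccl20 and Adm state in the 4 libraries with a value there, which leaves out resection 1. Adm is itself among the genes that name this state. Vegfa of resection 1 is above the other libraries in each state in which resection 1 has a value.

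Across the 34 sums of class and library, the genes most alike in profile were found by Pearson's r on log2(CPM + 10), over 4430 genes. These sums share libraries and depth, so r is a description only. Hk2 was most like Duox2 (r = 0.71) and Duoxa2 (0.66), which make an epithelial hydrogen peroxide generator. Adm was most like Nos2 (0.86) and Phlda1 (0.86), Vegfa like Etnk1 (0.86) and Neat1 (0.86), Hif1a like Dhrs7b (0.74), and Ldha like Mgst3 (0.95) and Serpinb1a (0.95). Between the genes themselves r was 0.59 for Hk2 and Adm and -0.06 for Hk2 and Vegfa. The other 5 genes were below the mean level of 20 CPM set for this comparison.

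Other genes of the pathway were taken from lists of 24 glycolysis genes, 8 HIF regulators and 20 HIF targets. In enterocyte-like cells none of the 17, 7 and 15 that could be tested was called between surgery groups by edgeR. Their median log2 fold changes were 0.13, 0.18 and 0.11, against -0.02 over all genes. By lowest p, the glycolysis genes were Pfkfb4 (0.50 ± 0.23), Aldoa (-0.49 ± 0.28) and Pkm (0.39 ± 0.29). Among the HIF targets, Tfrc, the transferrin receptor, was 60.6, 41.2 and 43.8 CPM in sham and 24.5 and 17.1 CPM in resection. Its log2 fold change was -1.27 ± 0.28 (edgeR adjusted p = 0.405). Angptl4, a lipase inhibitor, stood at 1.43 ± 0.64 and Ndrg1 at 0.65 ± 0.40. The regulators Egln2 (0.19 ± 0.24) and Cited2 (-0.22 ± 0.40) were within the spread.

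Along the villus score 15.5% of all genes were called higher and 14.9% lower toward the tip, and the calls in these lists are read against those shares. Of 17 glycolysis genes, 2 rose toward the tip and 3 fell, which is near the background. Slc16a3, the lactate exporter MCT4, rose by 1.43 ± 0.16 (edgeR adjusted p = 1.61e-06), while Pgam1 fell by 0.53, Aldoa fell by 0.45 and Gpi1 fell by 0.25. Of 7 regulators 1 rose, Epas1, which encodes HIF-2α, at 0.83 ± 0.22 (edgeR adjusted p = 0.00779). Egln2 was higher in the upper segment in 5 of 5 libraries and just missed the threshold (0.25 ± 0.10, edgeR adjusted p = 0.0602). Cited2 was at -0.13 ± 0.10. Of 15 HIF targets 2 rose, Bhlhe40 (0.999 ± 0.12), a clock repressor, and Mxi1 (0.67 ± 0.10), a MYC antagonist. The 5 that fell were Car9 (-1.50 ± 0.21), Pdk1 (-1.42 ± 0.27), Tfrc (-1.23 ± 0.12), Edn1 (-0.57 ± 0.10) and Ero1l (-0.38 ± 0.13). Genes called in these lists beyond the 3 with the lowest p were named after their values were seen. The lists' median log2 differences were 0.01, -0.02 and 0.13, against -0.0048 over all genes tested.

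Immediate-early genes, which tissue dissociation is known to raise, moved in the same direction along the score. Of 13, 9 rose toward the tip, among them Fos at 0.72 ± 0.09 and Dusp1 at 0.88 ± 0.10, and 0 fell, against 15.5 and 14.9% of all genes. Their summed level in enterocyte-like cells was 2845, 3503 and 4385 CPM in sham and 4976 and 2912 CPM in resection, so it did not separate the surgery groups. Its part in the villus differences of Vegfa, Pfkfb3 and Hif1a was not tested.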

How the data were processed

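For each library the authors deposited a matrix of unnormalized UMI counts, made with 10x 3' chemistry (version 2) and Cell Ranger per the labels, and with mm10 or GRCm38 as the build per the submitters' processing notes. The Cell Ranger version is given in the labels with a question mark and is not used here. Symbols on several rows (56) kept 1 row. Filters kept cells with 500 or more genes and a mitochondrial share of 20% or less, and the highest doublet scores (0.8% per 1000 cells) removed 735. Variable genes (2000, without mitochondrial genes, the 10 genes and their pathway lists), 30 principal components and 20 neighbours gave Leiden clusters (scanpy 1.11.5, leidenalg 0.10.2, resolution 1.0). A cluster took the name of the class whose markers were highest in it.

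Raw counts were summed per library and class, where at least 20 cells were present, and tested with edgeR 4.0.16 in R 4.3.3 (TMM, filterByExpr, quasi-likelihood F-test, two-sided, Benjamini-Hochberg, threshold 0.05). DESeq2 1.42.0 was an alternative. The villus fit had the library as a block, and its interaction with surgery was a separate fit. CPM uses TMM-scaled totals, computed apart for the sums of class, of villus segment and of each set of clusters. Class, segment and cluster CPM are thus not on 1 scale. The same 34 Hk2 UMIs of cycling-like cells in sham 1 gave 51.9 CPM as a class and 60.0 CPM as a cluster. The scripts were tested on simulated data.

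The members and lists were chosen with earlier results of these data known. Named beside the 10 genes are, per pathway list, the 3 genes with the lowest p in each enterocyte-like comparison among those of at least 20 CPM, for each member of at least 20 CPM its 2 most alike genes, and the first 3 genes of each state described. Some genes that this rule names are not reported here. Gene starts and promoters are from RefSeq (GRCm38.p6). Alternatives were RLE scaling, no filter on low counts, a replicate block, the library set as a term, each library left out, a 10% mitochondrial limit, doublets kept, other clusterings, and for the score 2 segments in place of 3, thinned cells, tip genes alone and immature cells included.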

Additional observations from a re-analysis of the deposited data

Results flagged for a closer look

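The change along the villus differed between surgery groups by a test of the difference itself for Adm, at -1.62 on the log2 scale, and for Hk2, at -1.13. Adm was higher in the upper than in the lower segment in 3 of 3 sham libraries and lower in both resection libraries. For Hk2 the change from the lower to the upper segment on the log2(CPM + 1) scale was -0.24, 0.0038 and -0.34 in sham 1 to 3, against -1.41 in resection 1 and -1.13 in resection 2. Upper segments had fewer UMIs per cell in both groups. With all cells thinned to 2000 UMIs the difference was -1.62 for Adm (edgeR adjusted p = 0.0226) and -1.53 for Hk2 (edgeR adjusted p = 0.136), so the Hk2 call was lost. The part of the clusters that make up the class in each library was not tested.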

How the results depend on the processing

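Between surgery groups none of the 10 genes was called in any class by edgeR, and RLE scaling, no filter on low counts, the library set as a term, doublets kept, other clusterings and each library left out kept these counts at 0. DESeq2 called 2 in enterocyte-like cells, Hk2 (-3.44) and Adm (-3.17). With the replicate block, 1 gene, Hk2, was called in immature enterocyte-like (-0.71, adjusted p = 0.0166) and in all epithelial cells (-1.11, adjusted p = 0.0401). The labels give numbers 1 and 2 to both groups, which is 2 pairs. Sham 3 has no resection library of its number, so under the block it adds nothing to the group difference. This fit leaves little from which to estimate the spread. Deviations from the group means correlated at 0.67 for sham 1 with resection 1, 0.32 for sham 2 with resection 2 and 0.56 for sham 3 with resection 2. With 2 resection libraries the crossed values are these with the sign turned. The same-numbered pairs also lie within the sets, so number and set cannot be told apart, and nothing else ties the numbers to animals. Under the block, called genes of any kind went from 1 to 79 in enterocyte-like, 0 to 171 in immature enterocyte-like, 0 to 27 in cycling-like, 3 to 76 in goblet-like, 2 to 59 in Paneth-like and 0 to 245 in all epithelial cells. With DESeq2 these counts were 74, 5, 2, 5, 5 and 35. With the set as a term they were 58, 3 and 2 in the first 3 classes, 7 in Paneth-like and 2 in all epithelial cells. Without a filter on low counts they were 5 in immature enterocyte-like, 9 in cycling-like, 30 in goblet-like, 13 in Paneth-like and 17 in all epithelial cells. Doublets kept gave 0 in enterocyte-like, 1 in immature enterocyte-like and 8 in goblet-like cells. Clusters scaled within libraries gave 0 in enterocyte-like and 1 in Paneth-like cells, resolution 0.5 gave 0 in enterocyte-like and 5 in goblet-like cells, and the 10% mitochondrial limit gave 1 in Paneth-like cells. Leaving out each library in turn gave 0 to 2 genes in enterocyte-like cells, 0 to 1 in their immature class, 0 in cycling-like and all epithelial cells, 0 to 6 in goblet-like cells and 0 to 11 in Paneth-like cells.

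Some fold changes near 0 changed sign. With the replicate block Pfkfb3 was 0.69, Egln3 0.13 and Ldha 0.27, and with the set as a term Ldha was 0.11. Within set A Ldha was 0.42 and Hif1a 0.057, and within set B Pfkfb3 was 0.10, Egln3 0.094, Vegfa -0.28 and Bnip3 -0.51. Within set B with sham 2 alone, added after the data were seen, Pfkfb3 was 1.71, Egln3 0.40, Ldha 0.19, Vegfa -0.43 and Bnip3 -0.59, and with sham 3 alone Vegfa was -0.14 and Bnip3 -0.42. Over the libraries left out, Pfkfb3 ranged from -1.19 to 0.58, Egln3 from -0.75 to 0.27, Ldha from -0.26 to 0.25, Vegfa from -0.54 to 1.42 and Bnip3 from -0.22 to 1.02.

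Between segments, 4 to 5 of the genes were called with each library left out, 3 with cells thinned to 2000 UMIs, 6 with no filter on low counts and 7 with immature cells included. All called genes went from 2631 to 1531 with DESeq2, 1591 with thinned cells, 1554 with tip genes only, 5563 with immature cells included and 1901 to 2467 with libraries left out. Pgk1 was -0.00056 with tip genes only and from -0.13 to 0.44 with libraries left out. For the difference between groups, 2 genes became 1 with thinned cells, 0 with tip genes only and 0 to 1 with libraries left out. All called genes went from 134 to 85 with DESeq2, 56 with thinned cells, 10 with tip genes only, 444 with immature cells included and 24 to 181 with libraries left out. Hk2 was -0.04 and Adm -0.61 with tip genes only. Ldha was 0.084 with thinned cells, 0.13 with immature cells included and -0.14 to 0.0202 with libraries left out. Hif1a was 0.053 with tip genes only, and Vegfa ran from -0.12 to 0.38 and Bnip3 from -0.69 to 0.79 with libraries left out. The cause of these changes was not tested. The 10% mitochondrial limit was not run for enterocyte-like, cycling-like and goblet-like sums or for the segments, since at least 1 sum had fewer than 20 cells. For the same reason stem-like cells were tested only with doublets kept (0 of 7493 genes called, 131 at an unadjusted p below 0.05, and 0 of 5 of the genes described here) and with clusters scaled within libraries (0 of 8080, 108 unadjusted, and 0 of 6), in both by edgeR. Slc2a1, at 16 UMIs in enterocyte-like cells, was limited by depth.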
